A study of Homo sapiens with 6 samples.

Results

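The genes described here are 10 transcriptional targets of the ERK pathway, namely SPRY1, SPRY2, SPRY4, SPRED1, SPRED2, DUSP4, DUSP5, DUSP6, ETV4 and ETV5. They were chosen by gene name from a deposited table of 60843 genes, all 10 were found there, and 9 passed the expression filter of a mean of at least 0.5 FPKM, a read density scaled to gene length and library size. RNA was sequenced from SW872-S, a human liposarcoma cell line grown in DMEM with fetal bovine serum and antibiotics. The TP53INP2_OE group (3 libraries) carried a plasmid that overexpresses TP53INP2, an autophagy protein gene, and the comparison group (3 libraries) had the genotype label TP53INP2 NC and is called NC. The comparison addresses the role of TP53INP2 in dedifferentiated liposarcoma. What the NC cells carried, the plasmid's promoter and its delivery were not given in the sources used here. Nor do the labels tell whether replicates were cultured separately, so p-values reflect only how these samples varied, possibly for technical reasons. All values come from 1 cell line, and in such bulk RNA fewer cells that express a gene and less RNA per cell cannot be told apart. As a check of the labels, TP53INP2 itself was at 18.9, 23.4 and 27.1 FPKM in TP53INP2_OE cells, against 10.6, 9.45 and 9.67 FPKM in NC cells (log2 fold change 1.13, adjusted p = 0.00282), with reads of plasmid and chromosomal copies summed. The libraries held 16038062 to 17607612 reads assigned to genes.

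The ERK pathway carries growth factor signals from receptor tyrosine kinases through RAS and the kinases RAF, MEK and ERK to the nucleus. Active ERK raises the transcription of genes whose products damp the same pathway, and the levels of these genes are widely used as a readout of pathway output. Sprouty proteins act between receptors and RAF, SPRED proteins bring the RAS inhibitor neurofibromin to the membrane, and the dual-specificity phosphatases DUSP4, DUSP5 and DUSP6 remove the activating phosphates from ERK. ETV4 and ETV5 are ETS transcription factors that are themselves induced by ERK and relay the signal to further genes.

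In TP53INP2_OE cells SPRY2, SPRED1 and DUSP5 rose and ETV4 fell, while SPRY4, SPRED2, DUSP4, DUSP6 and ETV5 did not pass the threshold (limma on log2(FPKM + 1), adjusted p below 0.05 over all 14791 tested genes). SPRY1 was hardly detected in either group and was not tested. The ratio of mean FPKM in TP53INP2_OE over NC was 1.21 for SPRY2, 1.15 for SPRED1, 1.24 for DUSP5 and 0.758 for ETV4. Changes thus ran in both directions, and of these 4 genes SPRY2 and DUSP5 also passed after an adjustment for GC content and length, while SPRED1 and ETV4 did not. Of all tested genes 16.4% were called higher and 18.6% lower, so the 3 higher and 1 lower of 9 stand against a high background. In all, 4 of 9 were called (44.4%) against 35.0% of tested genes, where 1 gene more or fewer shifts the share of the 9 by 11.1 points. The median log2 fold change was -0.0097 over the 9 genes and 0.0032 over all tested genes, and the median absolute log2 fold change was 0.12 over the 9 genes and 0.18 over all tested genes. In 3 of the 9 genes the TP53INP2_OE libraries all lay above the NC libraries and in 1 they all lay below, against 25.2% and 25.6% of tested genes.

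The proximal promoters are shown for SPRY2 and SPRED1, which rose, for DUSP6, which did not pass, and for SPRY1, which was close to silent. Each is the 250 bases before a RefSeq transcript start (GRCh38.p14), written in the direction of the gene. The ETS core GGAA on either strand is in capitals (TTCC is the same core on the other strand). Where RefSeq lists several starts (3 for SPRY2, 2 each for SPRY1 and SPRED2), only the start nearest the deposited gene start was used. Promoter windows were used for 6 of the genes, the 4 printed here and SPRY4 and SPRED2, and those of the other 4 genes were not analysed here.
SPRY2 (chr13:80341127-80341376, minus strand): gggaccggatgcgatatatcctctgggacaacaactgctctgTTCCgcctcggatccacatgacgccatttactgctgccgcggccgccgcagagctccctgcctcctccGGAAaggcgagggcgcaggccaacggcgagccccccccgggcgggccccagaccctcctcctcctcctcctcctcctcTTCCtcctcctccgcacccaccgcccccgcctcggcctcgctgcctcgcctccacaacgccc
SPRED1 (chr15:38252586-38252835, plus strand): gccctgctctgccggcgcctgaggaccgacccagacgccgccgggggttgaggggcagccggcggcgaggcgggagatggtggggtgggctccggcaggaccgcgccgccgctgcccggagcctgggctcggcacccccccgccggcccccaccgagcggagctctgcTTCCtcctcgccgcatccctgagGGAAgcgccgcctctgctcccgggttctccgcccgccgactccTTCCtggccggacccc
DUSP6 (chr12:89352502-89352751, minus strand): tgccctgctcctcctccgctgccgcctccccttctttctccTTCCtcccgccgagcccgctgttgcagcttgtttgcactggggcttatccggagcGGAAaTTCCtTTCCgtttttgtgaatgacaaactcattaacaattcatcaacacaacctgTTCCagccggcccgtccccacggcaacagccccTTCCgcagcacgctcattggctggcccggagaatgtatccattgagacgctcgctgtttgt
SPRY1 (chr4:123396545-123396794, plus strand): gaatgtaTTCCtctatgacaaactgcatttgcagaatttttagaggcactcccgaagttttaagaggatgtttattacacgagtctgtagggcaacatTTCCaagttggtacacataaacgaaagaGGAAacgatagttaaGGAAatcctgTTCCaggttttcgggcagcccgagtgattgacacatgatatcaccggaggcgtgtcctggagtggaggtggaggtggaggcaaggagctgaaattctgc

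The ETS core was found 3 times each in SPRY2 and SPRED1, 6 times in DUSP6 and 5 times in SPRY1, and 2 times in SPRY4 and 4 times in SPRED2. The RefSeq start used for SPRY4 lay 2208 bases from the deposited gene start, so its window fell inside the deposited gene. Across all 34943 RefSeq promoter windows of this length 92.7% held at least 1 core, with a median of 3. Neither of the longer ETS sequences CCGGAAGT and CAGGAAGT was found on either strand in the 6 windows, against 5.85% of all windows that hold at least 1 of them. The octamers TGAATGAA and TGAATGGA, which are among those that the repressor CIC binds, were likewise not found, against 2.17% of all windows. Other forms of the CIC octamer were not searched for. The printed DUSP6 window holds 1 of them on the other strand (tccattga), so it cannot be taken to lack a CIC octamer. Presence of such forms in the other windows was not tested. The printed windows differed in base composition, with a GC content of 70.4% in SPRY2, 78.4% in SPRED1, 57.2% in DUSP6 and 45.6% in SPRY1. These matches describe letters in a window and not bound sites.

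The Sprouty genes encode membrane-recruited inhibitors of receptor tyrosine kinase signalling. SPRY2 (ENSG00000136158, chromosome 13, 80335976 to 80341126 on GRCh38, as all gene positions here) was at 11.7, 10.6 and 11.3 FPKM in TP53INP2_OE cells, against 9.39, 9.34 and 8.91 FPKM in NC cells. The groups did not overlap, and the lowest TP53INP2_OE library lay above the highest NC library. Means were 11.2 ± 0.56 FPKM in TP53INP2_OE and 9.21 ± 0.27 FPKM in NC (SD, n = 3 each). SPRY2 rose by 0.25 on the log2 scale with a standard error of 0.05 (95% interval 0.14 to 0.37, limma adjusted p = 0.00912), and 32.2% of tested genes had a larger absolute change. Its values rest on 584 to 607 reads per TP53INP2_OE library and 492 to 531 reads per NC library.

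SPRY4 (ENSG00000187678, chromosome 5, 142310427 to 142326455) was at 10.8, 9.87 and 9.97 FPKM in TP53INP2_OE cells and at 10.2, 10.2 and 10.4 FPKM in NC cells. The groups overlapped, with both the highest and the lowest value of the 6 in TP53INP2_OE. The log2 fold change was -0.0097 (95% interval -0.12 to 0.098, adjusted p = 0.890), so changes larger than these bounds lie outside the interval. SPRY2 stood at 1.10 ± 0.03 times the FPKM of SPRY4 in TP53INP2_OE and at 0.897 ± 0.038 times in NC (SD, n = 3 each), so the order of the pair differed between the groups.

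SPRY1 (ENSG00000164056, chromosome 4, 123396795 to 123403760) had 2, 3 and 5 reads in the TP53INP2_OE libraries and 5, 4 and 10 reads in the NC libraries. These counts equal 0.0312, 0.0441 and 0.0778 FPKM in TP53INP2_OE and 0.0774, 0.0570 and 0.142 FPKM in NC. The groups overlapped, and the exact Poisson intervals of the single libraries reached from 0.242 to 11.7 reads in TP53INP2_OE and from 1.09 to 18.4 reads in NC, which cover counting error only. Since 3 reads correspond to between 0.0425 and 0.0468 FPKM in these libraries, the gene lay near that floor and no fold is given. The Sprouty signal of the line was thus that of SPRY2 and SPRY4, with a summed level of 21.4 ± 0.99 FPKM in TP53INP2_OE and 19.6 ± 0.085 FPKM in NC for the 3 genes (SD, n = 3 each).

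**Figure D1:**
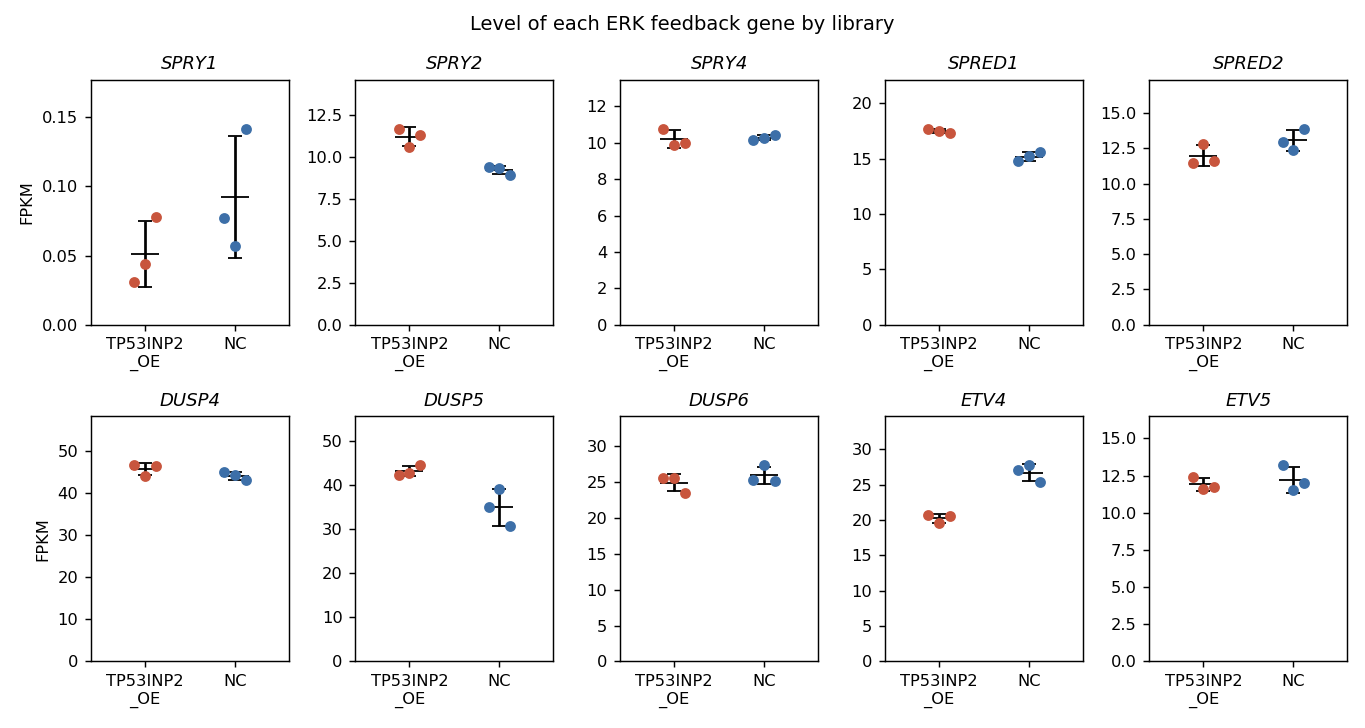
FPKM of the 10 ERK feedback genes, 1 panel per gene with its own axis from 0, with 3 TP53INP2_OE libraries on the left and 3 NC libraries on the right (points), and mean and SD as bars. The groups are apart in SPRY2, SPRED1 and DUSP5, where TP53INP2_OE is higher, and in ETV4, where it is lower, and SPRY1 stays at or below 0.142 FPKM.

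The SPRED genes encode Sprouty-related proteins with an EVH1 domain that bind neurofibromin and hold back RAS. SPRED1 (ENSG00000166068, chromosome 15, 38252836 to 38357249) was at 17.7, 17.5 and 17.3 FPKM in TP53INP2_OE cells, against 14.8, 15.2 and 15.6 FPKM in NC cells. The groups were apart, and the TP53INP2_OE libraries differed among themselves by only 1.11% (coefficient of variation), against 2.60% in NC. SPRED1 averaged 17.5 ± 0.20 FPKM in TP53INP2_OE and 15.2 ± 0.40 FPKM in NC (SD, n = 3 each), and rose by 0.19 on the log2 scale with a standard error of 0.04 (adjusted p = 0.00825). SPRED1 had the lowest transcript GC content of the 10 genes, 38.9%, and its log2 fold change was -0.0037 after an adjustment for GC content and length, which is described with the GC values.

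SPRED2 (ENSG00000198369, chromosome 2, 65310851 to 65432637) was at 11.5, 12.8 and 11.6 FPKM in TP53INP2_OE cells and at 12.9, 12.4 and 13.9 FPKM in NC cells. The second TP53INP2_OE library lay among the NC libraries, so the groups overlapped. The log2 fold change was -0.12 (95% interval -0.26 to 0.025, adjusted p = 0.175). SPRED1 stood at 1.47 ± 0.09 times the FPKM of SPRED2 in TP53INP2_OE and at 1.16 ± 0.05 times in NC (SD, n = 3 each). These ratios were not adjusted for transcript GC content, which was 38.9% for SPRED1 and 48.7% for SPRED2.

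DUSP4 and DUSP5 had the highest levels of the 10 genes in both groups. DUSP5 (ENSG00000138166, chromosome 10, 110497907 to 110511533), whose nuclear product acts on ERK, was at 42.3, 42.7 and 44.4 FPKM in TP53INP2_OE cells, against 34.9, 39.0 and 30.8 FPKM in NC cells. The groups were apart, but the NC libraries spread widely, with a coefficient of variation of 11.8% against 2.59% in TP53INP2_OE. DUSP5 averaged 43.1 ± 1.12 FPKM in TP53INP2_OE and 34.9 ± 4.10 FPKM in NC (SD, n = 3 each) and rose by 0.30 on the log2 scale with a standard error of 0.08 (adjusted p = 0.0269). The call was lost without TP53INP2_OE replicate 1 (adjusted p = 0.0550), replicate 2 (0.0671) or replicate 3 (0.0744) and without NC replicate 1 (0.0746), and the log2 fold change stayed between 0.22 and 0.39 when any 1 library was left out.

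DUSP4 (ENSG00000120875, chromosome 8, 29333064 to 29350684), another nuclear phosphatase of the family, was at 46.6, 44.0 and 46.4 FPKM in TP53INP2_OE cells and at 45.0, 44.2 and 43.2 FPKM in NC cells. The second TP53INP2_OE library lay among the NC libraries, and with 5339 to 5694 reads per library in all 6 it was the most deeply covered of the genes. Its log2 fold change was 0.05 (95% interval -0.042 to 0.13, adjusted p = 0.374). DUSP6 (ENSG00000139318, chromosome 12, 89347235 to 89352501), the cytoplasmic ERK phosphatase, was at 25.6, 25.6 and 23.6 FPKM in TP53INP2_OE cells and at 25.2, 27.3 and 25.2 FPKM in NC cells. The groups overlapped, and the log2 fold change was -0.06 (95% interval -0.18 to 0.064, adjusted p = 0.431). DUSP5 stood at 1.74 ± 0.13 times the FPKM of DUSP6 in TP53INP2_OE and at 1.34 ± 0.11 times in NC (SD, n = 3 each), and the 3 phosphatases summed to 114 ± 1.20 FPKM in TP53INP2_OE and 105 ± 5.68 FPKM in NC.

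ETV4 and ETV5 belong to the PEA3 group of ETS factors. ETV4 (ENSG00000175832, chromosome 17, 43527844 to 43579620) was at 20.7, 19.5 and 20.6 FPKM in TP53INP2_OE cells, against 27.1, 27.7 and 25.3 FPKM in NC cells. The groups were apart by more than the range within either. ETV4 averaged 20.2 ± 0.63 FPKM in TP53INP2_OE and 26.7 ± 1.24 FPKM in NC (SD, n = 3 each), and fell by 0.38 on the log2 scale with a standard error of 0.05 (adjusted p = 0.00301), the largest change of the 9 tested genes. It had 1172 to 1178 reads per TP53INP2_OE library and 1552 to 1725 reads per NC library. ETV4 overlaps DHX8, a helicase gene on the opposite strand at 11.6 FPKM in TP53INP2_OE and 11.1 FPKM in NC, and use of strand in counting was not given, so reads of the pair may be shared.

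ETV5 (ENSG00000244405, chromosome 3, 186046314 to 186110318) was at 12.4, 11.6 and 11.7 FPKM in TP53INP2_OE cells and at 13.2, 11.5 and 11.98 FPKM in NC cells. All TP53INP2_OE values fell inside the NC range, and the log2 fold change was -0.03 (95% interval -0.17 to 0.10, adjusted p = 0.699). ETV5 overlaps DGKG, a gene on the same strand at 0.755 FPKM in TP53INP2_OE and 0.725 FPKM in NC, so reads of this pair may also be shared. ETV4 stood at 1.70 ± 0.05 times the FPKM of ETV5 in TP53INP2_OE and at 2.19 ± 0.19 times in NC (SD, n = 3 each), with all 3 TP53INP2_OE ratios below all 3 NC ratios. These ratios were not adjusted for transcript GC content, which was 60.8% for ETV4 and 48.6% for ETV5.

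By level, the FPKM values in TP53INP2_OE cells ran from DUSP4 and DUSP5 at the top through DUSP6, ETV4 and SPRED1 to SPRED2, ETV5, SPRY2 and SPRY4, with SPRY1 last. In TP53INP2_OE the ranges of DUSP4 and DUSP5 overlapped, as did those of neighbours from SPRED2 to SPRY4. In NC cells ETV4 stood above DUSP6 and SPRY4 above SPRY2, and there the neighbours ETV4 and DUSP6, and SPRED2 and ETV5, overlapped. Summed over the 10 genes, the level was 197 ± 2.44 FPKM in TP53INP2_OE and 192 ± 5.86 FPKM in NC (SD, n = 3 each), with overlapping libraries.

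**Figure D2:**
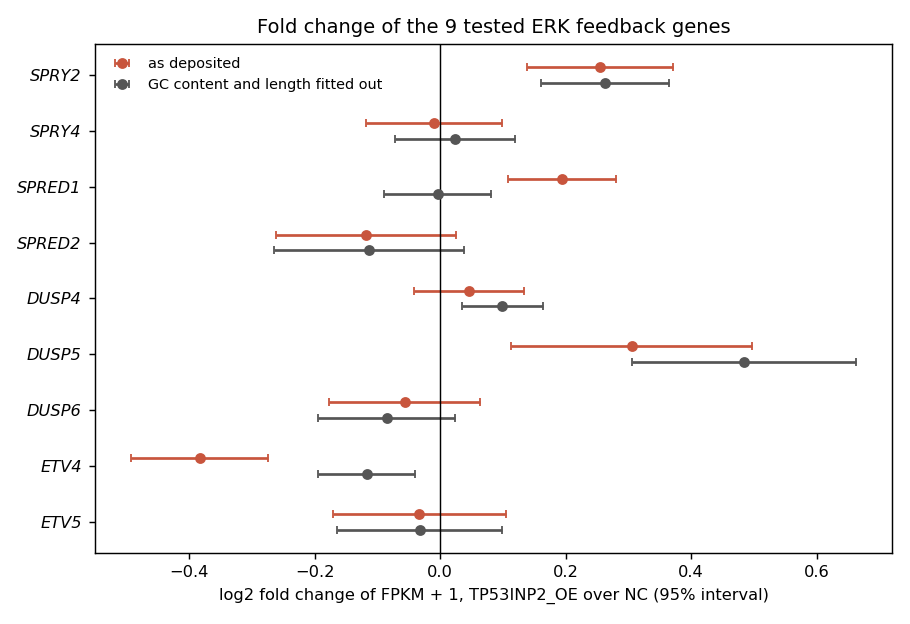
Log2 fold change of FPKM + 1 in TP53INP2_OE over NC with its 95% interval for the 9 tested genes, from the deposited values (red) and after adjustment for GC content and length (grey). SPRY2 and DUSP5 are above 0 in both, SPRED1 is at 0.19 as deposited and at -0.0037 adjusted, and ETV4 is at -0.38 as deposited and at -0.12 adjusted.

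Fold changes in these libraries followed the GC content of the transcripts. Over 11270 protein-coding genes, which are not independent replicates, the rank correlation of fold change with GC (Spearman's rho) was -0.783. Whether this pattern comes from the libraries or the cells was not tested. Among the feedback genes, SPRED1 at 38.9% GC lay close to the median of genes of like composition, which was 0.22 at 39.0% GC. ETV4 at 60.8% GC lay below the median of its neighbours, which was -0.24 at 60.3% GC, but within their 5th to 95th percentile of -0.59 to 0.091. DUSP5 at 55.9% GC lay on the other side of its neighbours, whose 95th percentile was 0.17 at 56.7% GC. SPRY2 at 48.3% GC lay below the 95th percentile of 0.32 at 48.7% GC.

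With each library adjusted for GC content and length by a smooth curve, 4.53% of 14548 genes were called higher and 5.88% lower. Of the 9 feedback genes 2 were then called higher and 0 lower, and the median absolute log2 fold change was 0.099 over these 9 genes and 0.105 over all genes in that fit. DUSP5 rose by 0.48 with a standard error of 0.07 (adjusted p = 0.0156), and 4.50% of genes had a larger absolute change. SPRY2 rose by 0.26 with a standard error of 0.04 (adjusted p = 0.0176), and 15.1% of genes had a larger one. ETV4 was at -0.12 (95% interval -0.19 to -0.039, adjusted p = 0.0691) and SPRED1 at -0.0037 (95% interval -0.089 to 0.081, adjusted p = 0.965), so neither passed. DUSP4 was at 0.099 (adjusted p = 0.0645), SPRED2 at -0.11, DUSP6 at -0.085, ETV5 at -0.033 and SPRY4 at 0.024, and none of these passed. With the replicate numbers as a block in the same fit SPRY2 missed the threshold (adjusted p = 0.0517).

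**Figure D3:**
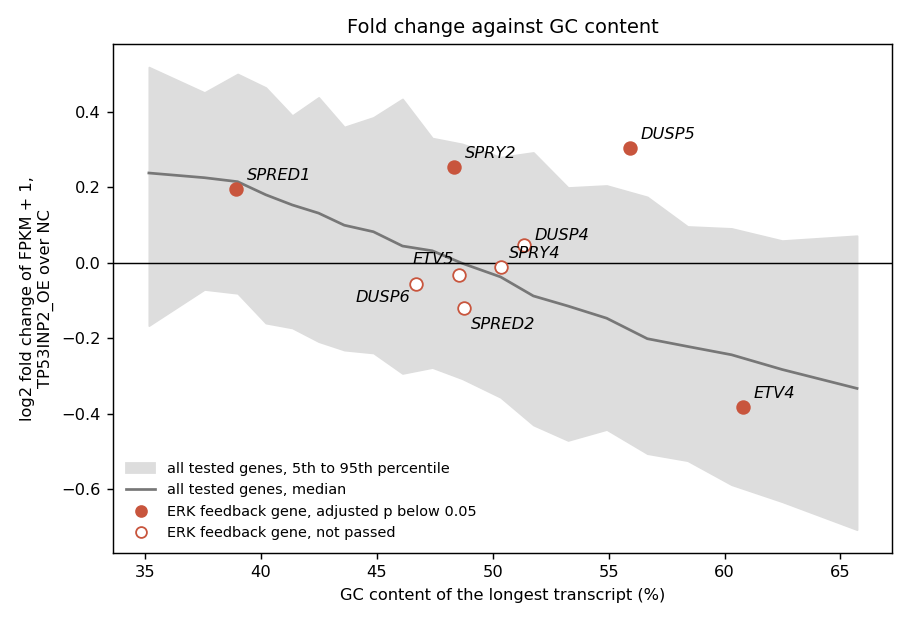
Log2 fold change of FPKM + 1 in TP53INP2_OE over NC against transcript GC content in percent, with the 9 tested feedback genes as points (filled where the adjusted p is below 0.05) and all tested genes as median line and band from the 5th to the 95th percentile in 20 bins. SPRED1 lies near the median line, ETV4 within the band, and DUSP5 above the band.

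The likeness of other genes to the group was taken as Pearson's r of log2(FPKM + 1) over the 6 libraries, as a description. For DUSP6 the highest of 11269 protein-coding genes were PYROXD2 (0.980), TRAF3IP2 (0.976) and CPNE7 (0.975), and 9 genes reached 0.95. Of these, PYROXD2 (0.37 to 0.88 FPKM over the 6 libraries) and CPNE7 (0.91 to 1.63 FPKM) were low, with PYROXD2 near the expression filter. For ETV4 they were NUCB1, LAMTOR4 and POLL (each 0.999), and 1227 genes reached 0.95. The ETV4 pattern, low in all TP53INP2_OE libraries, was therefore shared by many genes.

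The other parts of the pathway changed in both directions. Of 20 genes of the cascade from adaptors to ERK effectors, 7 rose and 7 fell (median log2 fold change 0.036), against 16.4% of all tested genes called higher and 18.6% called lower. The same shares, 35.0% in all as deposited and 4.53% higher and 5.88% lower after the adjustment, are the background for each list that follows. HRAS and MAP2K2, which encode a RAS protein and the kinase MEK2, fell by 0.42 and 0.37, and NRAS and the ERK-activated kinase gene RPS6KA3 rose by 0.35 and 0.36. The 7 that rose had transcript GC contents of 35.9% to 47.3% and the 7 that fell 52.3% to 65.8%. After the adjustment none rose, and SHC1, GRB2 and PTPN11, which encode adaptors and a phosphatase upstream of RAS, were called lower (-0.15 each). On the deposited values SHC1 (-0.34) and GRB2 (-0.23) were also called lower, while PTPN11 was at -0.0046 and did not pass. HRAS (-0.088), MAP2K2 (-0.11), NRAS (0.16) and RPS6KA3 (0.17) did not pass after the adjustment.

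Of 11 tested genes of other brakes on RAS and receptors, 4 rose and 2 fell (background 16.4% higher and 18.6% lower). NF1, which encodes the neurofibromin that SPRED proteins recruit, was at 9.79 ± 0.43 FPKM in TP53INP2_OE and 7.97 ± 0.24 FPKM in NC (SD, n = 3 each; log2 fold change 0.27, adjusted p = 0.00713). RASA2, another RAS GTPase activator, rose by 0.40, and PEBP1, an inhibitor of RAF, and LZTR1, which helps degrade RAS, fell by 0.46 and 0.34. After the adjustment 0 of these 11 passed, with NF1 at 0.10, RASA2 at 0.19, PEBP1 at -0.32 and LZTR1 at -0.083.

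Of 6 further dual-specificity MAPK phosphatases tested, 2 rose and 1 fell (background 16.4% higher and 18.6% lower). DUSP10, which acts mainly on the stress kinases p38 and JNK, was at 17.5 ± 1.24 FPKM in TP53INP2_OE and 11.2 ± 1.05 FPKM in NC (SD, n = 3 each; log2 fold change 0.60, adjusted p = 0.00327). DUSP1, an immediate early phosphatase, was at 39.4 ± 3.13 FPKM in TP53INP2_OE and 30.6 ± 4.62 FPKM in NC (log2 fold change 0.36, adjusted p = 0.0463), and DUSP7 fell by 0.18. DUSP10 (0.55) and DUSP1 (0.53) also passed after the adjustment, and DUSP7 (0.053) did not.

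Of 15 tested further ERK output genes and ETS-related regulators, 3 rose and 4 fell (median -0.028, background 16.4% higher and 18.6% lower). PHLDA1, an ERK-induced gene, and the ETS repressor gene ELK3 rose by 0.35 and 0.42. ETS1 (0.19) was also called higher, and EPHA2 (-0.22) and CIC (-0.23) were called lower. CCND1 (-0.020), EGR1 (-0.036), FOS (-0.028) and MYC (-0.12) did not pass, before or after the adjustment. ERF, an ETS repressor that ERK exports from the nucleus, was at 18.9 ± 0.91 FPKM in TP53INP2_OE and 28.7 ± 1.56 FPKM in NC (SD, n = 3 each; log2 fold change -0.58, adjusted p = 0.00260), and ELK1 fell by 0.36. After the adjustment PHLDA1 (0.26), ELK3 (0.30) and ERF (-0.27) also passed, and ELK1 (-0.16), ETS1 (0.060), EPHA2 (0.036) and CIC (0.076) did not. IER3 (0.22) and FOSL1 (0.17) passed only after the adjustment, and on the deposited values they had the opposite sign (-0.016 and -0.093). Of 15 tested receptor and ligand genes, 3 rose and 4 fell (background 16.4% higher and 18.6% lower). FGF2, a growth factor that signals through this pathway, rose by 1.20, the receptor gene MET rose by 0.31, and PDGFRB and ERBB2 fell by 0.41 and 0.28. FGF2 (0.99) and MET (0.17) passed after the adjustment, and PDGFRB (-0.22) and ERBB2 (-0.094) did not.

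**Figure D4:**
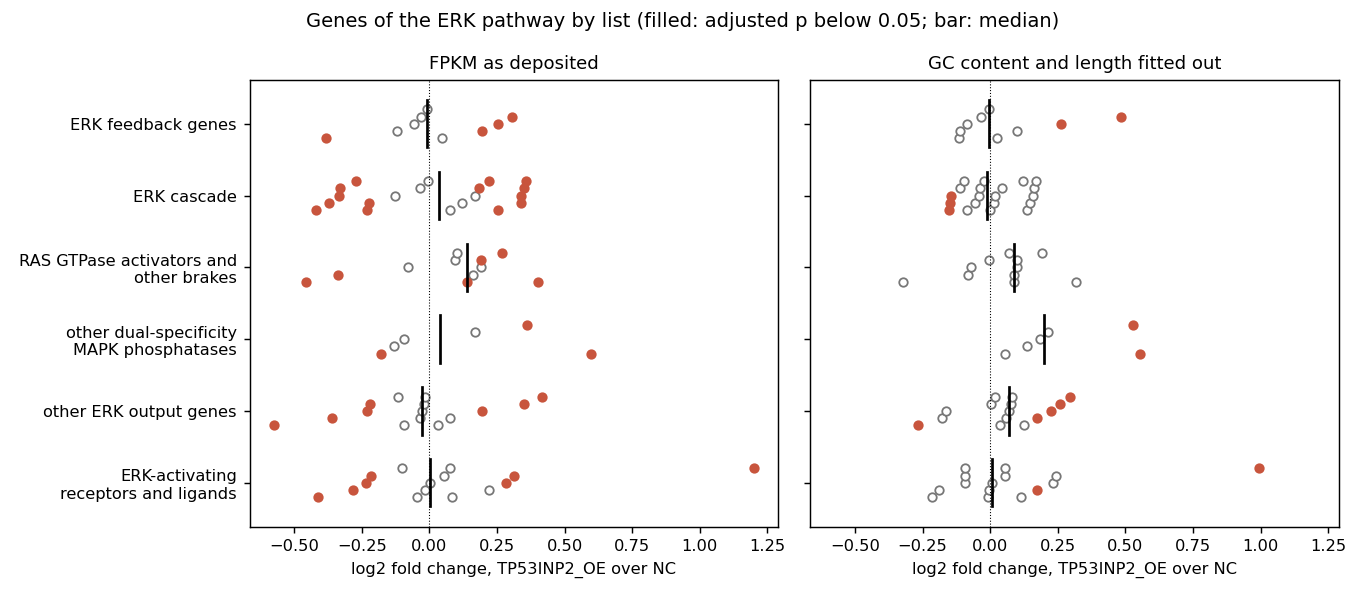
Log2 fold change in TP53INP2_OE over NC for the tested genes of each ERK pathway list, from the deposited FPKM on the left and after the GC and length adjustment on the right (filled points have an adjusted p below 0.05, bars are medians). In the cascade list 7 genes passed on either side of 0 on the left, and 3 passed, all below 0, on the right.

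Of 7 mesenchymal and adipocytic markers 3 were tested. VIM was at 751 FPKM in TP53INP2_OE and 731 FPKM in NC and did not pass, and COL1A1 fell to 89.0 FPKM in TP53INP2_OE, against 121 FPKM in NC, also after the adjustment (-0.19). PPARG, the adipocyte transcription factor gene, was at 7.30 FPKM in TP53INP2_OE and 6.64 FPKM in NC, with the groups apart, and did not pass (adjusted p = 0.109). THY1 was at 0.140 FPKM in TP53INP2_OE and 0.174 FPKM in NC, COL1A2 was listed at 0 in TP53INP2_OE and averaged 0.00913 FPKM in NC, and the adipocyte genes FABP4 and ADIPOQ were listed at 0 in all 6 libraries. Of 17 markers of other cell types 12 were below the expression filter, among them PTPRC, CD3E, EPCAM and CDH1, each with a mean of at most 0.126 FPKM in either group. Of the 5 tested, the keratin genes KRT18 and KRT8 and the endothelial cadherin gene CDH5 fell by 0.27, 0.25 and 0.21. They were clearly expressed, at 61.5, 6.57 and 27.8 FPKM in TP53INP2_OE and 74.4, 8.01 and 32.3 FPKM in NC. After the adjustment the log2 fold changes of KRT18, KRT8 and CDH5 were -0.10, -0.085 and -0.076, and none of these genes passed. The other endothelial markers did not pass in either fit, with PECAM1 at 3.96 FPKM in TP53INP2_OE and 3.70 FPKM in NC (log2 fold change 0.078) and VWF at 0.813 FPKM in TP53INP2_OE and 0.699 FPKM in NC (0.094, groups apart). The 17 markers summed to 96.5 to 110 FPKM in TP53INP2_OE and to 116 to 123 FPKM in NC, and their part in the results above was not tested.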

How the data were processed

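Gene expression was analysed in 6 RNA sequencing libraries of SW872-S cells, 3 TP53INP2_OE and 3 NC. Groups and replicate numbers came from the sample titles, and table columns were matched by genotype and replicate number. Per the labels' protocols, total RNA came from a Trizol extraction and an Illumina TruSeq kit gave the libraries. The authors deposited FPKM values per gene with gene name, position and length, per the file headers. Bowtie 0.12.2, GRCh38 and mm8 appear with no role, per the submitters' processing notes, and the counting step was not given in the sources used here. Gene positions matched GENCODE 29 on GRCh38 in chromosome and in start or end for 92.8% of the 96.2% of IDs found there.

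Values were taken as log2(FPKM + 1), which understates changes of low genes. Genes averaging 0.5 FPKM or more entered limma 3.58.1 under R 4.3.3 (empirical Bayes with trend, Benjamini-Hochberg over all tested genes, threshold 0.05), and the procedure was tested on simulated data. The simulated folds were all larger than those of the called feedback genes and had no trend with GC content. That test therefore does not cover changes of this size. FPKM times length gave whole multiples of 1 step per library within 0.01 for 100% of values above 0, which were taken as reads. GC content came from the longest GENCODE 29 transcript (98.4% of tested genes). For the correction, natural splines (5 degrees of freedom) on GC content and log2 length were fitted to the deviations of a library from the gene means, and the fit, intercept included, was subtracted. This removes any change tied to GC content, whatever its source.

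Named genes are the 10 feedback genes, TP53INP2, up to 4 genes past the threshold with the largest change per list (or the 2 highest expressed), and the genes most like DUSP6 and ETV4. DHX8, DGKG, SHC1, GRB2, PTPN11, IER3, FOSL1, ETS1, EPHA2, CIC, CCND1, EGR1, FOS and MYC were chosen after their values were seen. The same holds for the cell type markers named beside KRT18, KRT8, CDH5, VIM and COL1A1. The members, lists and alternatives were chosen with earlier results of these data known. Alternatives covered the pseudocount, filters, gene types, TPM, quantile normalization, voom on recovered reads, GC content and length, a replicate block and leaving out each library.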

Additional observations from a re-analysis of the deposited data

How the results depend on the processing

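Each of the 9 tested genes was refitted under 16 alternatives. DUSP4, DUSP6 and SPRED2 kept their direction and did not pass in any. SPRY2 and ETV4 kept their direction in all 16. SPRY2 passed in 15, missing at 0.26 under the replicate block with GC and length correction, and ETV4 passed in 14, missing at -0.12 under the GC and length correction with and without the block. SPRED1 passed in 14 and turned to -0.0037 in the same 2 settings. DUSP5 passed in 11, missing without a filter on low values (adjusted p = 0.0780, with more genes tested) and without 4 of the single libraries. SPRY4, which never passed, turned to 0.0060 with TPM, 0.0098 with quantile normalization and 0.024 under the GC and length correction with and without the block, and ranged from -0.046 to 0.012 when 1 library was left out. ETV5 ranged from -0.072 to 0.019 there.

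The count of all called genes was 1514 under the GC and length correction, 668 with the block added, and 3276 to 4779 when 1 library was left out (3276 without NC replicate 1). The correction with the block left 1 feedback gene called higher, and it left 0 called lower with and without the block. Under the correction, without and with the block, the called genes numbered 3 and 0 in the cascade, 0 and 0 among the other brakes, 2 and 2 among receptors and ligands, and with the block 4 among the other output genes. Without a filter 1 other phosphatase and 4 other output genes were called. With 1 library left out, the ranges were 1 to 2 for the other phosphatases (1 without TP53INP2_OE replicate 1 or 2 or NC replicate 1 or 3), 4 to 7 for the other output genes (4 without NC replicate 1) and 4 to 6 for receptors and ligands (4 without NC replicate 1 or 2). The cause of these differences was not tested. Same-numbered libraries of the 2 groups did not deviate together (correlations 0.017, 0.012 and 0.011), and not every library correlated best with its own number, so the numbers were not taken as pairs. The replicate block alone gave 4396 called genes, with 3 feedback genes higher and 1 lower. SPRY1, with at most 10 reads per library, could not be compared at this depth.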
